A study of Mus musculus with 13 samples.

Results

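Heat production by fat rests on a small set of genes, and 9 of them are described here: Ucp1, Elovl3, Cidea, Dio2, Ppargc1a, Prdm16, Ebf2, Cox8b and Cox7a1. They were chosen by name, and all 9 were found by symbol among the 22609 genes of the fat table and of the tumour table. The fat was visceral and came from mice fed a high-fat diet (HFD in the labels), with 4 libraries from mice with a knockout of PD-L1 restricted to fat (KO) and 3 from wild-type mice (WT). The tumours were E0771, a transplantable mouse mammary cancer line, with 3 tumours grown in KO hosts and 3 in WT hosts. All mice were of the C57BL/6 strain, and the sources used here name neither the promoter that restricts the deletion to fat nor the diet of the tumour hosts. Both kinds of libraries were made from polyadenylated RNA of whole tissue.

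In brown and beige adipocytes, noradrenaline acts on beta-adrenergic receptors and raises cyclic AMP, which starts lipolysis and the transcription of Ucp1. UCP1 sits in the inner mitochondrial membrane and lets protons return without making ATP, so that the energy of oxidised fatty acids is released as heat. PRDM16 and EBF2 set the identity of these cells, PGC-1alpha (Ppargc1a) drives their mitochondrial genes, and Dio2 makes active thyroid hormone inside them. Visceral fat of mice is mostly white fat, which stores triglyceride and holds few such cells.

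Gene reads numbered 29362788 to 41534662 per fat library (7 libraries) and 22834259 to 34706555 per tumour library (6 libraries). Fat values are given as normalised reads, meaning reads divided by 1 size factor per library, and tumour values as reads scaled to a common library size. The WT fat columns are numbered 1, 3 and 4 in the deposited table, and these numbers are used to name them. Cd274, the gene of PD-L1, averaged 543.9 ± 17.6 normalised reads in KO fat and 590.2 ± 129 in WT fat (SD, n = 4 and n = 3), with an adjusted p of 0.66 in limma, so each direction below rests on the labels of the libraries. Nothing in the labels ties each library to an animal of its own, so the p-values refer to the spread among libraries, which may be technical.

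In visceral fat, Ucp1 and Elovl3 were higher in KO than in WT, Ebf2 was lower, and the other 6 genes did not pass the test. The count was therefore 2 higher, 1 lower and 6 not passed of 9, at an adjusted p under 0.05 in limma over 14455 genes. Over all genes tested, 16.8% were higher, 17.4% were lower and 34.2% passed in either direction, so the share of the 9 genes that passed was near that of all genes. The same shares stand beside the counts of every other gene list in fat below. Groups did not overlap for 4 of the 9 genes, 2 with KO above and 2 with KO below, against 21.6% of all genes with KO above, 22.1% with KO below and 43.7% in either direction. Differences are given as log2 fold changes, KO minus WT, and called log2 differences from here on. The median log2 difference of the 9 genes was -0.52, against -0.00050 over all genes tested. Without KO replicate 4, neither gene was called higher, because Elovl3 had an adjusted p of 0.0512 and Ucp1 missed the minimum value for the test.

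**Figure D1:**
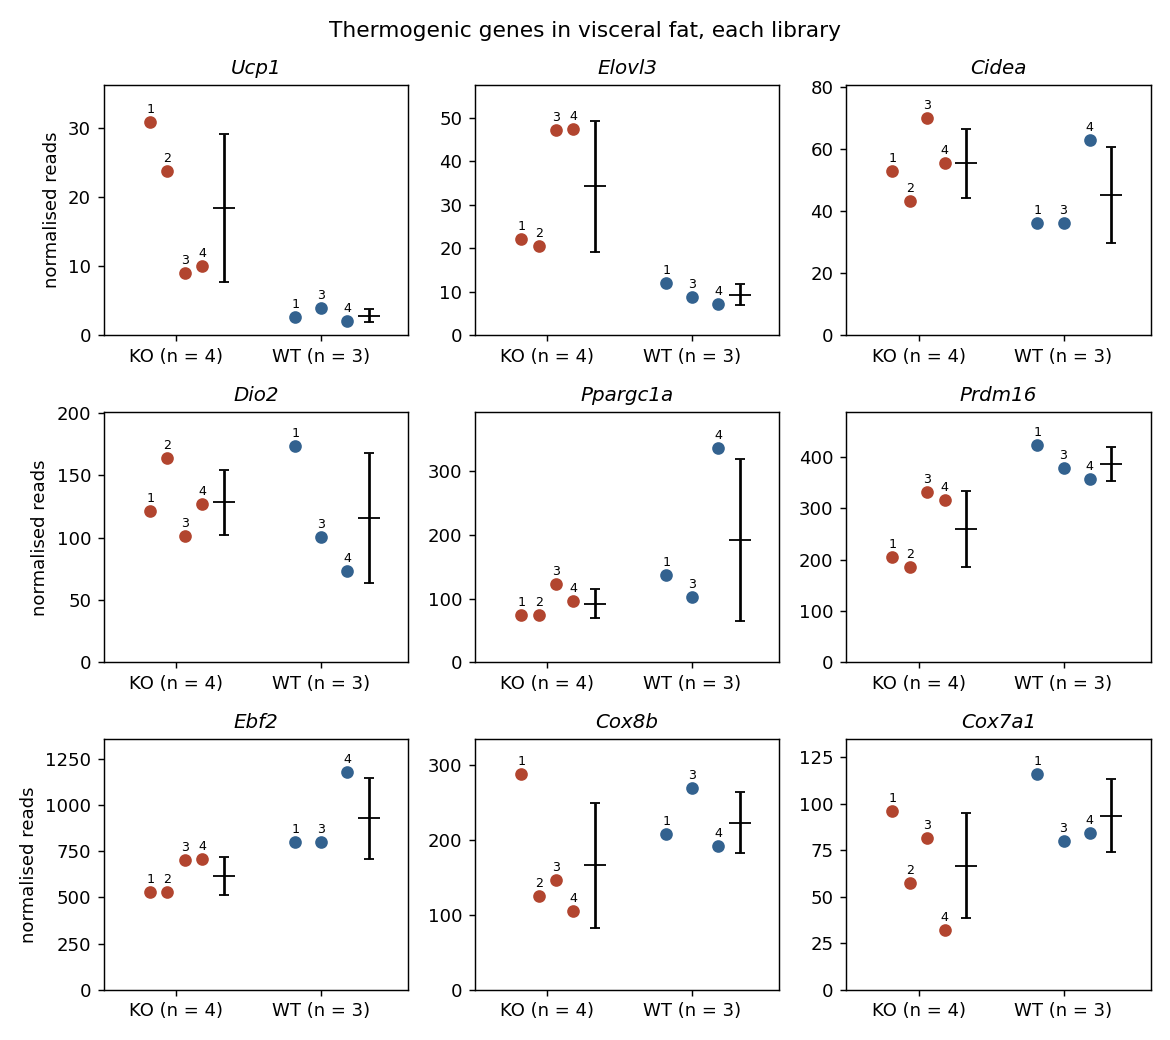
Normalised reads of the 9 thermogenic genes in visceral fat (y axes, each starting at 0), for 4 KO libraries on the left and 3 WT libraries on the right of each panel. Points are libraries with their replicate or column number, and the bars beside them are the mean and SD; Ucp1 and Elovl3 lie higher in every KO library than in any WT library, and Prdm16 and Ebf2 lie lower.

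Ucp1, the proton carrier that gives thermogenic fat its heat, lies on chromosome 8 from 83290352 to 83298452 on the plus strand of GRCm38. It had 30.9, 23.7, 9.08 and 10.1 normalised reads in KO replicates 1 to 4, against 2.58, 3.91 and 2.06 in WT columns 1, 3 and 4. Every KO library was above every WT library, and KO replicates 1 and 2 were well above replicates 3 and 4. These values rest on 28, 22, 10 and 10 reads in KO and on 3, 4 and 2 reads in WT. The means were 18.4 ± 10.7 normalised reads in KO (SD, n = 4) and 2.85 ± 0.955 in WT (SD, n = 3). The log2 difference was 2.19 (SE 0.55), a fold of 4.56 with a 95% confidence interval of 1.92 to 10.8, and the adjusted p of limma was 0.016. The two-sided exact permutation p was 0.0286, the smallest that 35 relabellings of 4 and 3 libraries can give. Ucp1 reached the minimum of 10 normalised reads in KO libraries only, so that it entered the test through the group in which it was high. Without that minimum the adjusted p was 0.014. Leaving out each library in turn, also without that minimum, it ran from 0.0141 to 0.0449, in fits added for Ucp1 only. With the minimum kept, Ucp1 was not tested without KO replicate 1, 2 or 4. It passed in the other 4 such fits. A pseudocount of 10 in place of 1 lowered the log2 difference to 1.07 (adjusted p = 0.0322).

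The promoter of Ucp1 is shown because cyclic AMP acts on transcription through the factor CREB, which binds the letters TGACG of a cyclic AMP response element. The window runs from 250 bases before to 50 bases after the start of transcription in RefSeq, on the plus strand of GRCm38.p6, chr8:83290098-83290397, and the half-site is in capitals.
Ucp1: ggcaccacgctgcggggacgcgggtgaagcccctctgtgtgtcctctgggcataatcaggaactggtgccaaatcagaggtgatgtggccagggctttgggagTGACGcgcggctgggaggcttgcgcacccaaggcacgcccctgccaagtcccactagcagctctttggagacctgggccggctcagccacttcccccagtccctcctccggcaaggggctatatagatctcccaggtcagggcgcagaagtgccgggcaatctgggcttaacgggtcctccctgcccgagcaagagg
The half-site begins 147 bases before the start. TGACG was searched on both strands, so CGTCA counts as well, and it was found in 20.8% of 32851 RefSeq promoter windows of the same length and in 3 of the 6 thermogenic genes with a window, Ucp1, Ppargc1a and Dio2. A match describes the letters only.

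Dio2, the deiodinase that turns thyroxine into active thyroid hormone, lies on chromosome 12 from 90724552 to 90738438 on the minus strand. It had 121.4, 164.0, 101.7 and 127.0 normalised reads in KO, against 173.8, 100.8 and 73.2 in WT. The WT libraries spanned the whole KO range. Dio2 had a log2 difference of 0.22 (SE 0.31), a fold of 1.16 with an interval of 0.714 to 1.90 (adjusted p = 0.615), and it turned to -0.063 (adjusted p = 0.889) without WT column 4. Its RefSeq promoter is shown because it holds a full cyclic AMP response element, TGACGTCA, in capitals, on the minus strand of GRCm38.p6, chr12:90738989-90739288.
Dio2: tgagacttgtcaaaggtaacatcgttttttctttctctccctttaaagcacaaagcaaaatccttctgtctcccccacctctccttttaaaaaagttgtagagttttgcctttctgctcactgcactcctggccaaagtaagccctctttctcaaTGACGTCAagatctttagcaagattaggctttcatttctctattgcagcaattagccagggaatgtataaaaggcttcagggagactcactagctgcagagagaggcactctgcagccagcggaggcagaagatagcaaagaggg
The element begins 95 bases before the RefSeq start, which lies upstream of the end of the gene in GENCODE M21. TGACGTCA was found in 1.79% of the windows and in 1 of the 6 thermogenic genes, and it contains the half-site on both strands.

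Ppargc1a, the coactivator of mitochondrial biogenesis, lies on chromosome 5 from 51454250 to 51567726 on the minus strand. It had 75.1, 74.4, 122.6 and 95.7 normalised reads in KO, against 136.8, 102.7 and 337.2 in WT. The groups overlapped through KO replicate 3 and WT column 3, and WT column 4 stood far above the rest. The log2 difference was -0.89 (SE 0.40), a fold of 0.538 with an interval of 0.287 to 1.01, and the adjusted p was 0.115. Without WT column 4 the log2 difference was -0.39 (adjusted p = 0.318). Its promoter is shown for comparison with that of Ucp1, on the minus strand of GRCm38.p6, chr5:51567676-51567975, with the half-site in capitals as CGTCA, 49 bases before the start.
Ppargc1a: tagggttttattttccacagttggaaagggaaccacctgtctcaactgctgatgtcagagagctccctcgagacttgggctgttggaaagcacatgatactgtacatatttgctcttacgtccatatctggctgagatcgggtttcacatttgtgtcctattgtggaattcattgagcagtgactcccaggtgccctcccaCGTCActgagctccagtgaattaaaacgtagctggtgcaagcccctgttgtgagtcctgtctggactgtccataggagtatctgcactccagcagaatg
The letters TCAAGGTCA, bound by oestrogen-related receptors, were searched on both strands and found in 0.423% of all windows and in 0 of the 6 thermogenic genes. The letters TATAAA, on the strand of the gene only, were in 8.32% of windows and in 2 of the 6, Cox8b and Dio2. In Dio2 they begin 30 bases before the start. In Cox8b they begin after the start, at base 5 of the transcribed part.

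Elovl3, an elongase of very long fatty acids that brown fat makes in the cold, lies on chromosome 19 from 46131897 to 46135694 on the plus strand. It had 22.1, 20.5, 47.2 and 47.4 normalised reads in KO replicates 1 to 4, against 12.04, 8.80 and 7.22 in WT columns 1, 3 and 4. The groups did not overlap, and here KO replicates 3 and 4 were the high ones, the reverse of Ucp1. The means were 34.3 ± 15.0 in KO (SD, n = 4) and 9.36 ± 2.46 in WT (SD, n = 3). This gave a log2 difference of 1.69 (SE 0.43), a fold of 3.23 (95% confidence interval 1.64 to 6.34), with an adjusted p of 0.0168. Elovl3 reached the minimum of 10 in all 4 KO libraries and in WT column 1 only. The call was lost without KO replicate 4 (adjusted p = 0.0512) and without WT column 3 (adjusted p = 0.0561). Elovl3 overlaps Pitx3 on the opposite strand, whose mean was 1.33 ± 2.05 in KO and 4.71 ± 1.44 in WT.

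Cidea, a lipid droplet protein abundant in brown fat, lies on chromosome 18 from 67343604 to 67367785 on the plus strand. It had 53.0, 43.2, 69.9 and 55.4 normalised reads in KO, against 36.1, 36.2 and 62.9 in WT. The groups overlapped, since WT column 4 was above 3 of the KO libraries. Between the groups the log2 difference was 0.32 (SE 0.30), a fold of 1.25 with an interval of 0.782 to 1.99, and the adjusted p was 0.43. Cidea overlaps the noncoding gene B430212C06Rik on the opposite strand, whose level was 164 ± 28.8 in KO and 293 ± 80.9 in WT, a difference of -0.81 on the log2 scale (adjusted p = 0.0308). The strand setting of the counting is not given in the sources used here, so reads of such pairs may have been counted together.

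Prdm16, the transcription factor that holds brown and beige adipocytes in their fate, lies on chromosome 4 from 154316125 to 154636873 on the minus strand. It had 205.3, 186.6, 331.4 and 316.4 normalised reads in KO, against 423.2, 378.6 and 356.8 in WT. Every KO library was below every WT library, with KO replicates 1 and 2 lowest. Prdm16 had a log2 difference of -0.61 (SE 0.23), a fold of 0.655 with an interval of 0.453 to 0.945. The unadjusted p was 0.0285 and the adjusted p 0.0723, so Prdm16 did not pass, although it passed without KO replicate 3 (log2 difference -0.74, adjusted p = 0.0428).

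Ebf2, a transcription factor of brown and beige precursor cells, lies on chromosome 14 from 67233292 to 67430918 on the plus strand. It had 528.7, 528.6, 703.7 and 707.4 normalised reads in KO, against 802.6, 802.2 and 1179 in WT. No KO library reached the lowest WT library, and KO replicates 1 and 2 again lay below 3 and 4. The group means were 617 ± 102 in KO (SD, n = 4) and 928 ± 217 in WT (SD, n = 3). Ebf2 fell with a log2 difference of -0.58 (SE 0.19), a fold of 0.67 with an interval of 0.496 to 0.904, and an adjusted p of 0.0448. The call was lost in 7 of 13 alternatives, where the adjusted p rose to at most 0.13. These were the test without a minimum value, limma without trend, and the fits without KO replicate 1, 2 or 4 or without WT column 3 or 4.

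Cox8b and Cox7a1 encode subunits of cytochrome c oxidase, the last complex of the respiratory chain, in the forms made in heart, skeletal muscle and brown fat. Cox8b (chromosome 7, 140898945 to 140900446, minus strand) had 288.1, 125.1, 146.2 and 104.8 normalised reads in KO, against 208.2, 269.0 and 191.8 in WT. KO replicate 1 was the highest of all 7 libraries, and the other 3 KO libraries were below all WT libraries. The log2 difference of Cox8b was -0.52 (SE 0.33), a fold of 0.696 with an interval of 0.41 to 1.18 (adjusted p = 0.255), and it passed without KO replicate 1 (-0.82, adjusted p = 0.024). Cox7a1 (chromosome 7, 30184144 to 30186078, plus strand) had 96.0, 57.2, 81.7 and 32.2 normalised reads in KO, against 116.1, 80.2 and 84.6 in WT. Its groups overlapped, and its log2 difference was -0.57 (SE 0.38), a fold of 0.672 with an interval of 0.371 to 1.22 (adjusted p = 0.267). Of 14 skeletal muscle genes, 8 were tested, 1 rose (Tnni2), 2 fell (Acta1 and Myl1) and 5 did not pass, and their summed level was 598 to 855 normalised reads in KO and 1459 to 1918 in WT. Over all genes tested, 16.8% were higher and 17.4% lower. Single muscle genes differed in direction. Tnni2 had 26.2 to 46.4 normalised reads in KO and 9.78 to 18.9 in WT. It reached the minimum value for the test in every KO library but not in every WT library. Ckm was at 0.908 to 5.39 in KO and 0 to 1.96 in WT, and its groups overlapped. Myh1 was lower in every KO library, at 3.31 to 11.1, than in any WT library, at 12.9 to 21.7 (adjusted p of limma = 0.0632). The part of muscle in the values of Cox8b and Cox7a1 was not tested.

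**Figure D2:**
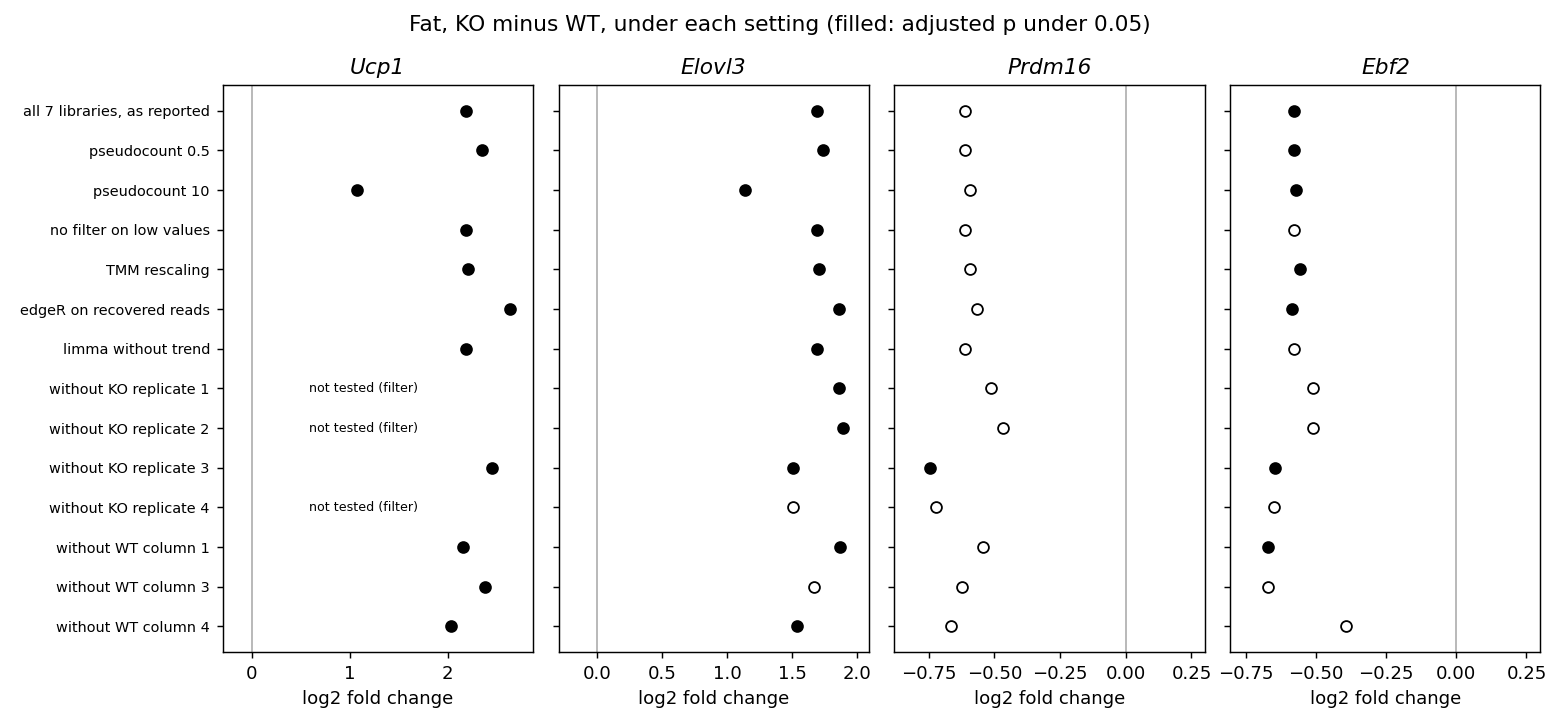
Log2 fold change, KO minus WT (x axes), of the 3 genes that passed in fat and of Prdm16 under each setting (rows), with filled points for an adjusted p under 0.05. Ucp1 and Elovl3 stay above 0 and Prdm16 and Ebf2 below 0 in every row shown, while the calls of Elovl3 and Ebf2 are lost in 2 and 7 of them.

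Within the KO group, libraries 1 and 2 differed from libraries 3 and 4 in several of the 9 genes. Ucp1 was higher in KO replicates 1 and 2, at 30.9 and 23.7 against 9.08 and 10.1 normalised reads, while Elovl3, Prdm16, Ebf2 and Ppargc1a were each lower there. The summed level of 8 endothelial genes was also lower in KO replicates 1 and 2, at 20500 and 19590, than in the other KO libraries, at 33500 and 28580, against 46030 to 62930 in WT. All 8 endothelial genes fell in KO, against 17.4% of all genes tested. Nerve genes split the other way, with summed levels of 444.9 and 476.8 in KO replicates 1 and 2 and 302.3 and 291.2 in KO replicates 3 and 4, against 232.8 to 335.1 in WT. Of the 8 nerve genes, 5 were tested, of which Npy rose and 4 did not pass, and Th, which makes noradrenaline's precursor in sympathetic nerves, was at 0 in all 7 libraries. Summed adipocyte genes were lower in KO replicates 1 and 2, at 415400 and 324800, than in 3 and 4, at 525000 and 425800. By the mean log2 level of the same 18 genes, KO replicates 1 to 4 stood at 13.08, 12.65, 13.45 and 13.08. On that scale replicate 1 was not below replicate 4, so the split did not hold. Summed macrophage genes were higher in KO replicates 1 and 2, at 882900 and 829400, than in 3 and 4, at 681800 and 783300. In WT the adipocyte sum was 1078000 to 1421000 and the macrophage sum 568800 to 710100. The macrophage sum includes Lpl, which fat cells make as well, at 295900 to 322667 in KO and 516145 to 546266 in WT. Without Lpl the macrophage sum was 363246 to 560272 in KO and 52671 to 184364 in WT. The part of vessels, nerves, fat cells and macrophages in the values of the 9 genes was not tested.

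Per kilobase of transcript, the order of levels in KO fat was Cox8b, Cox7a1, Ebf2, Cidea, Prdm16, Dio2, Elovl3, Ppargc1a and Ucp1. Cox8b averaged 461 normalised reads per kilobase in KO and 619 in WT, and Ucp1 11.3 in KO and 1.74 in WT. Cox8b did not overlap Cox7a1 in either group, whereas Cox7a1 and Ebf2 overlapped in both, at 66.5 to 198 and 102 to 136 per kilobase in KO and at 165 to 239 and 154 to 226 in WT. In KO the ranges of Elovl3, Ppargc1a and Ucp1 overlapped, at 10.9 to 25.2, 11.5 to 19.0 and 5.55 to 18.9 per kilobase. In WT Elovl3 and Ucp1 were the lowest, at 3.84 to 6.40 and 1.26 to 2.39 per kilobase, apart from each other and from Ppargc1a at 15.9 to 52.2. Adipoq, the gene of adiponectin made by all mature fat cells, stood at 20718 per kilobase in KO and 88742 in WT. Of 6 genes described as selective for classical brown fat, 4 were tested, of which 1 rose (Epsti1), 2 fell (Ebf3 and Fam176a) and 1 did not pass (Pdk4). The other 2, the transcription factors Zic1 and Lhx8, were close to 0 in both groups, with 0 to 1.01 and 1.08 to 3.02 normalised reads in KO and 0 and 0 to 2.06 in WT.

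Fat cell genes were lower in KO fat. All 18 adipocyte genes fell, and their summed level was 324775 to 525030 normalised reads in KO and 1078480 to 1421250 in WT. In bulk tissue, fewer fat cells and less RNA per fat cell cannot be told apart. Set against the mean log2 level of the 18 genes in the same library, each of the 9 genes was higher in KO than in WT, by 1.03 for Ppargc1a up to 4.11 for Ucp1. Groups did not overlap for 8 of the 9, the exception being Cox7a1, against 90.1% of all genes on this scale, so the count was near that of genes in general. Of 12 macrophage genes, 11 rose and 1 did not pass, with a summed level of 681800 to 882939 in KO and 568816 to 710150 in WT. The gene that did not pass was Lpl, a lipase that fat cells make as well, with 295900 to 322667 normalised reads in KO and 516145 to 546266 in WT, and the other 11 genes summed to 363246 to 560272 in KO and 52671 to 184364 in WT. Of 10 precursor and fibroblast genes, 1 rose, 3 fell and 6 did not pass, and their summed levels overlapped. Of 8 mesothelial genes, 4 fell and 4 did not pass, and of 5 heart and smooth muscle genes tested of 8, 2 fell and 3 did not pass. Genes of testis and epididymis, organs next to the gonadal fat depot of male mice, summed to 3.24 to 13.2 normalised reads in KO and 287 to 1978 in WT, of which Prm2 was the only gene of 11 tested and fell. The sum of all 11 genes was 3.24, 5.45 and 5.04 in KO replicates 2, 3 and 4, under the minimum of 10. Prm2 thus entered the test through WT libraries, the group in which it was high. The part of these differences in the values of the 9 genes was not tested.

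The relatives of the 9 genes were described family by family. Among uncoupling proteins, Ucp2, which is made in macrophages and many other cells, rose to 39679 ± 4362 normalised reads in KO, against 13254 ± 5357 in WT (log2 difference 1.66, SE 0.28, adjusted p = 0.0032). Ucp3, the form of skeletal muscle and brown fat, fell to 454 ± 130 in KO, against 1443 ± 157 in WT (-1.70, SE 0.21, adjusted p = 0.00138). Of 8 uncoupling proteins and nucleotide carriers, Ucp1 included, 2 rose, 2 fell and 4 did not pass, the other fall being the nucleotide carrier Slc25a4, and the median log2 difference was 0.40. Cidec, the droplet protein of white fat cells, fell by 1.54 on the log2 scale (adjusted p = 0.0022), while Cidea had a difference of 0.32. Of 6 elongases tested of 7, 3 rose (Elovl1, Elovl3, Elovl4), 2 fell (Elovl5, Elovl6) and 1 did not pass (Elovl7), with a median of 0.45. Elovl6, which extends palmitate in lipid synthesis, fell by 0.83 (adjusted p = 0.00595), and Elovl4 rose by 1.90 (adjusted p = 0.0295). Elovl4 had 16.6 to 90.8 normalised reads in KO and 8.25 to 10.8 in WT. It reached the minimum value for the test in every KO library but not in every WT library. Elovl4 thus entered the test through the group in which it was high. Mecom, the closest relative of Prdm16, fell by 1.21 (adjusted p = 0.00282), and Ebf1 and Ebf3 fell by 1.21 and 0.99 (adjusted p = 0.00888 and 0.00971). Ppargc1b and Pprc1, relatives of Ppargc1a, had differences of 0.34 and 0.43 (adjusted p = 0.34 and 0.21), and Dio3, which inactivates thyroid hormone, had 0.58 (adjusted p = 0.451). None of these differences between a gene and its relative was itself tested.

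**Figure D3:**
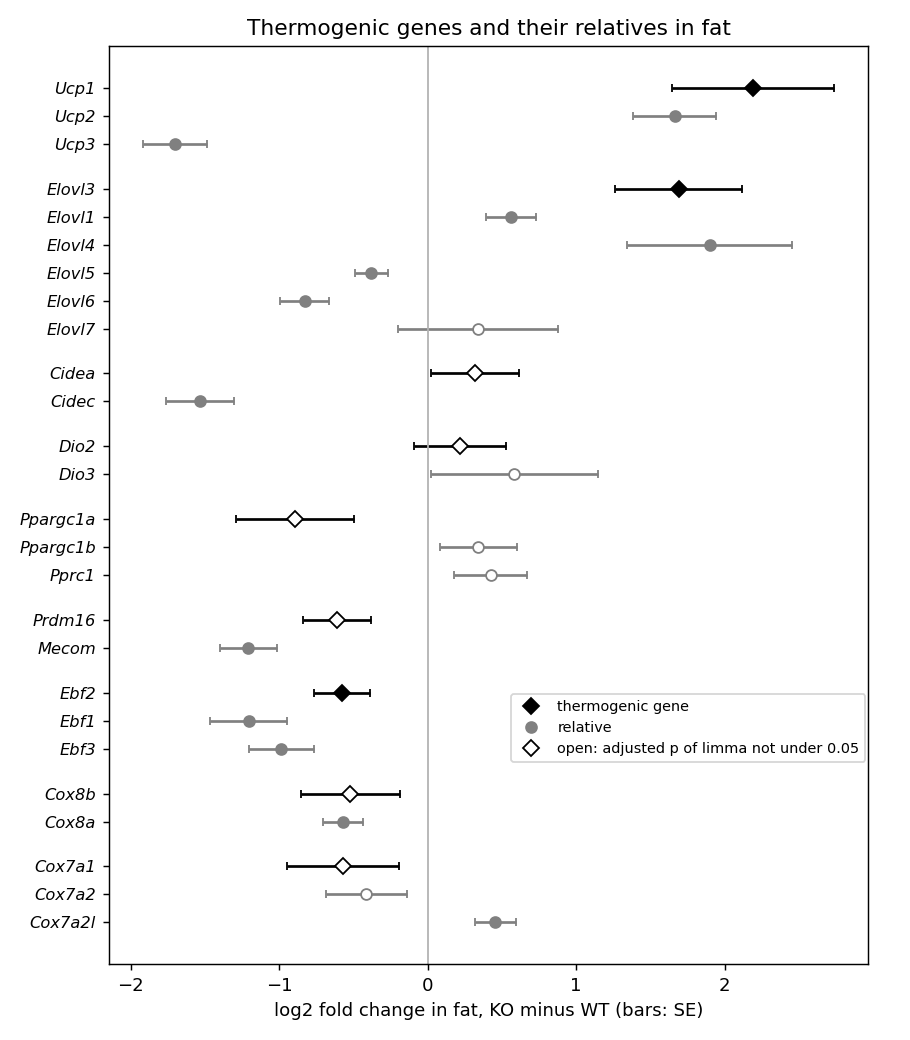
Log2 fold change in fat, KO minus WT (x axis, bars SE), of the 9 thermogenic genes (diamonds) and their relatives (circles), with open symbols for an adjusted p of limma not under 0.05. Ucp1 and Ucp2 lie to the right of 0 and Ucp3 to the left, and the 3 EBF genes and the pair Prdm16 and Mecom lie to the left.

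Of 16 nuclear subunits of cytochrome c oxidase tested of 17, Cox8b and Cox7a1 included, 2 rose, 2 fell and 12 did not pass, with a median log2 difference of -0.35. By comparison, 34.2% of all genes tested passed in either direction. Cox8a, the form of Cox8b made in most tissues, fell by 0.57 (adjusted p = 0.0128), and Cox6a1 fell by 0.39 (adjusted p = 0.0348). Cox7a2l, a factor that joins respiratory complexes, rose by 0.45 (adjusted p = 0.0342). Cox6a2, the muscle form of subunit 6A, rose by 2.64 (adjusted p = 0.0249), with 33.4 to 65.4 normalised reads in KO and 1.03 to 20.5 in WT. It reached the minimum value for the test in every KO library but not in every WT library. Cox7a2, the form of Cox7a1 in most tissues, had a difference of -0.41 (adjusted p = 0.267).

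Among receptors, channels and secreted factors of the thermogenic signal, most of those that passed fell in KO fat. Of 16 genes, 13 were tested, 1 rose, 6 fell and 6 did not pass, with a median log2 difference of -0.88 against -0.00050 over all genes. Among all genes tested, 16.8% rose, 17.4% fell and 34.2% passed in either direction. Adrb3, the beta-adrenergic receptor of fat cells, fell to 822 to 1336 normalised reads in KO, against 6467 to 27771 in WT (log2 difference -3.71, SE 0.43, adjusted p = 0.0011). Adrb1, the beta-adrenergic receptor best known from the heart, had a difference of -1.17 (adjusted p = 0.116). Klb, the coreceptor of the hormone FGF21, fell by 2.01 (adjusted p = 0.00109), while Fgf21 itself rose by 1.11 (adjusted p = 0.0431). Fgf21 had 25.4 to 42.7 normalised reads in KO and 9.28 to 19.8 in WT. It reached the minimum value for the test in every KO library but not in every WT library. Nrg4, a growth factor secreted by brown fat, fell by 1.98 (adjusted p = 0.0054), and Bmp7, a signal for brown adipocyte formation, fell by 1.53 (adjusted p = 0.00739). Ucp1 and Adrb3 thus lay on opposite sides of 0 in the same libraries.

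Of 28 other transcription factors and cofactors of thermogenic fat, 23 were tested, 3 rose, 6 fell and 14 did not pass, with a median log2 difference of -0.04. The share that passed was near the 34.2% of all genes tested. Besides Mecom, Ebf1 and Ebf3, Nfia, a factor that opens brown fat enhancers ahead of other factors, fell by 0.86 (adjusted p = 0.00687). Thyroid hormone genes gave 1 rise, 3 falls and 3 not passed of 7 tested, Dio2 among the last, and a median of 0.22. The receptors Thrb and Thra fell by 1.14 and 0.64 (adjusted p = 0.00294 and 0.0239), Thrsp, a hormone-responsive lipogenic gene of fat cells, fell by 2.47 (adjusted p = 0.00183), and the transporter Slc16a10 rose by 0.46 (adjusted p = 0.0269).

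Genes of fuel use in brown fat gave 2 rises, 4 falls and 8 not passed of 14, with a median log2 difference of -0.27. All genes tested gave 16.8% rises and 17.4% falls, 34.2% in either direction. Acot11, a thioesterase induced by cold in brown fat, rose to 711 ± 123 normalised reads in KO, against 245 ± 89.4 in WT (log2 difference 1.58, adjusted p = 0.00248). Fabp3, a fatty acid carrier of muscle and brown fat, rose to 22.6 ± 5.98 in KO, against 7.21 ± 2.92 in WT (1.57, adjusted p = 0.0201). Fabp3 reached the minimum value for the test in KO libraries only, at 18.2 to 30.9 normalised reads, against 3.91 to 9.46 in WT. Like Ucp1, it thus entered the test through the group in which it was high. Ppara, a receptor that turns on fatty acid oxidation, fell by 1.24 (adjusted p = 0.00803), and Acadvl, an enzyme of that pathway, fell by 0.58 (adjusted p = 0.0207).

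Heat can also be made without UCP1 by cycling of creatine or calcium, and of 9 such genes tested of 11, 3 rose, 2 fell and 4 did not pass, with a median log2 difference of 0.29. Among all genes tested, 16.8% rose and 17.4% fell. Ckb, the creatine kinase of this cycle in fat, rose to 6444 ± 1866 normalised reads in KO, against 1454 ± 492 in WT (log2 difference 2.15, SE 0.28, adjusted p = 0.00144). Slc6a8, the creatine transporter, rose by 2.14 (adjusted p = 0.00128), and Gatm, the first enzyme of creatine synthesis, rose by 1.73 (adjusted p = 0.00302). Gamt, the enzyme that completes the synthesis, fell by 1.07 (adjusted p = 0.0021). The tumours, where Adipoq reached at most 6.45 normalised reads, held these transcripts too. Ckb, Slc6a8, Gatm and Gamt averaged 1133, 13436, 5357 and 417 normalised reads in KO hosts, and 812, 14689, 4132 and 578 in WT hosts. The part of cells other than fat cells in the fat values of these genes was not tested. Of 9 genes listed here as beige markers, 6 were tested, of which Epsti1 rose by 1.00 (adjusted p = 0.0287), Hoxc8 fell by 1.65 (adjusted p = 0.000678) and 4 did not pass, with a median of 0.38. Epsti1 is also on the list of classical brown fat genes above and was the only rise in both lists, so it does not tell them apart. Tmem26, used to sort beige cells, had 62.6 to 232 normalised reads in KO and 34.0 to 115 in WT (0.82, adjusted p = 0.282).

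The genes whose levels over the 7 fat libraries were most like that of Ucp1 were Prmt2, Rnmt, H2afz, Ptger2 and Rfc4, at Pearson r of 0.995 to 0.989 among 12720 genes with a mean of 50 or more. For Prdm16 they were Fam53a, Adora1, Limch1, Lin7a and Cdh2, at 0.989 to 0.983. These values describe the same 7 libraries, both groups together, so they include the difference between KO and WT and what the libraries share. They are also the highest picked from 12720 genes over only 7 libraries, so high values arise by the picking itself. The values of Ucp1 rest on 2 to 28 reads per library.

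In the tumours, the thermogenic genes were low and none differed between hosts by the test. Of the 9 genes, 5 had enough reads for edgeR, and 0 of these passed, as did 0% of the 13109 genes tested. At an unadjusted p under 0.05 there were 0 of the 5 and 905 of all genes, and DESeq2 called 0 of the 9. Groups overlapped for all 5, while 5.68% of all genes had KO above without overlap, 4.93% KO below and 10.6% either. Their median log2 difference was -0.98, against 0.0037 over all genes tested.

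**Figure D4:**
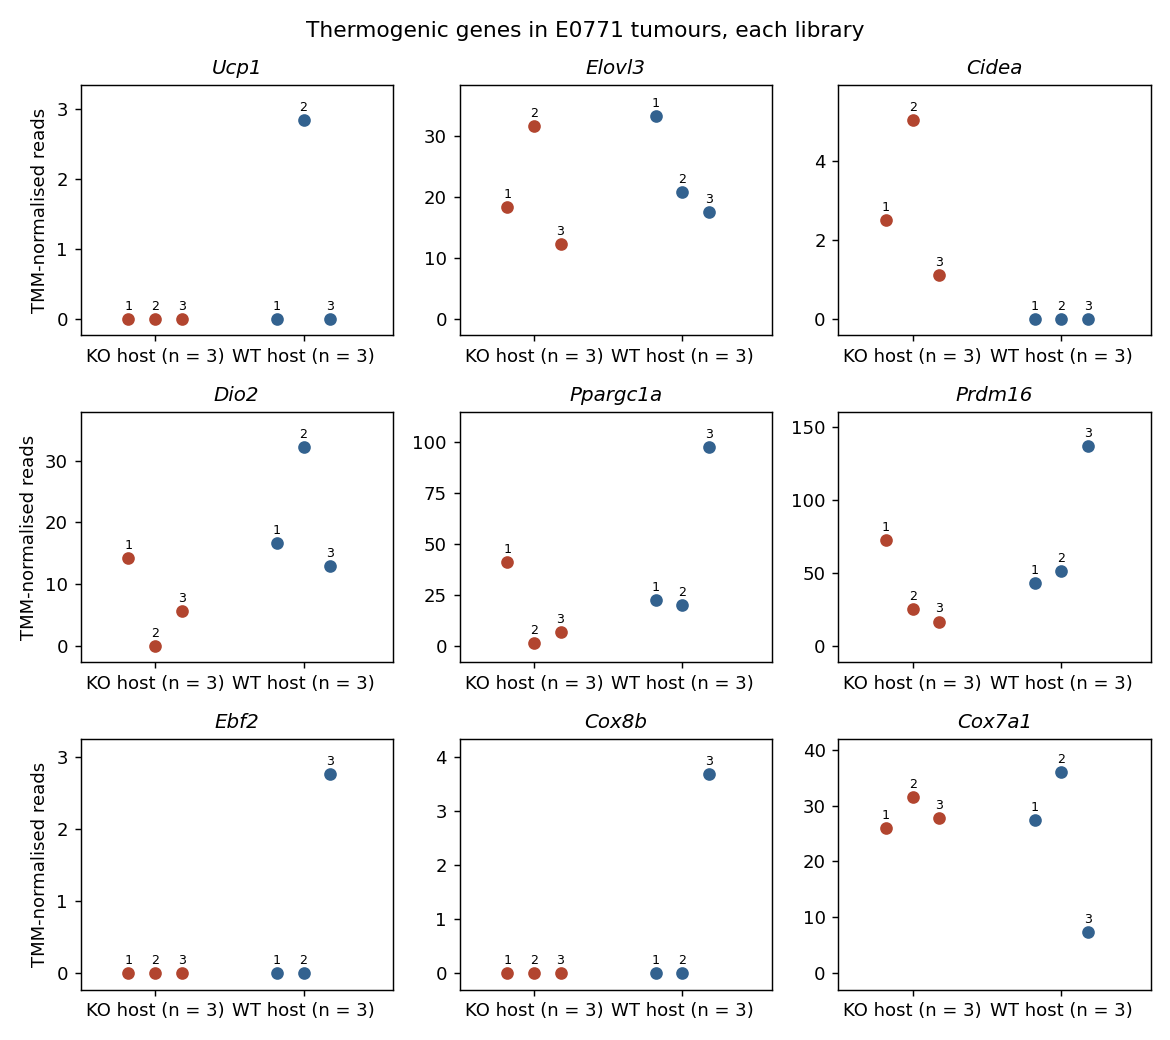
TMM-normalised reads of the 9 thermogenic genes (y axes) in E0771 tumours, for 3 tumours from KO hosts on the left and 3 from WT hosts on the right of each panel, with the replicate number above each point. Ucp1, Ebf2, Cox8b and Cidea lie at 0 in 3 or more of the 6 tumours, and Ppargc1a and Prdm16 are highest in WT replicate 3.

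Ucp1 had 0 reads in each tumour from KO hosts, against 0, 3 and 0 reads in WT hosts. Ebf2 had 0 reads in each KO tumour, against 0, 0 and 3 in WT, and Cox8b 0 in each KO tumour, against 0, 0 and 4 in WT. Cidea had 3, 4 and 1 reads in KO, against 0 in each WT tumour. The groups of Cidea did not overlap, but it had too few reads for edgeR. A count of 0 allows up to 3 reads in a library by counting error alone. Cidea in KO replicate 2 and Cox8b in WT replicate 3, at 4 reads each, were just above that. These 4 genes thus lay at or near the limit of detection and no fold is given. Adipoq was equally low, at 3.34 to 6.31 normalised reads in KO and 0 to 6.45 in WT.

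Prdm16 had 72.7, 25.3 and 16.7 normalised reads in KO, against 43.0, 51.1 and 137 in WT, a log2 difference of -0.98 (SE 0.58, adjusted p of edgeR = 0.794). Ppargc1a had 41.0, 1.26 and 6.68 in KO, against 22.5, 19.9 and 97.7 in WT, a log2 difference of -1.44 (SE 0.88, adjusted p = 0.796). Single tumours decided the size of both differences. Without KO replicate 1 they were -1.89 for Prdm16 and -3.49 for Ppargc1a, and without WT replicate 3 they were -0.27 and -0.30 (adjusted p of 0.249 to 0.922 over these 4 values). Both genes were highest in WT replicate 3 and, among KO tumours, in replicate 1. The 8 nerve and Schwann cell genes had the same order at the top, with sums of 425, 129 and 89.0 in KO, against 179, 188 and 921 in WT, and Sox10 had the highest mean of them in both groups, while Dbh was at 0 in all 6 tumours. The 14 skeletal muscle genes summed to 306, 354 and 193 in KO, against 374, 417 and 860 in WT. Of these lists, 4 and 11 genes were tested and none passed. Their part in the values of Prdm16 and Ppargc1a was not tested.

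**Figure D5:**
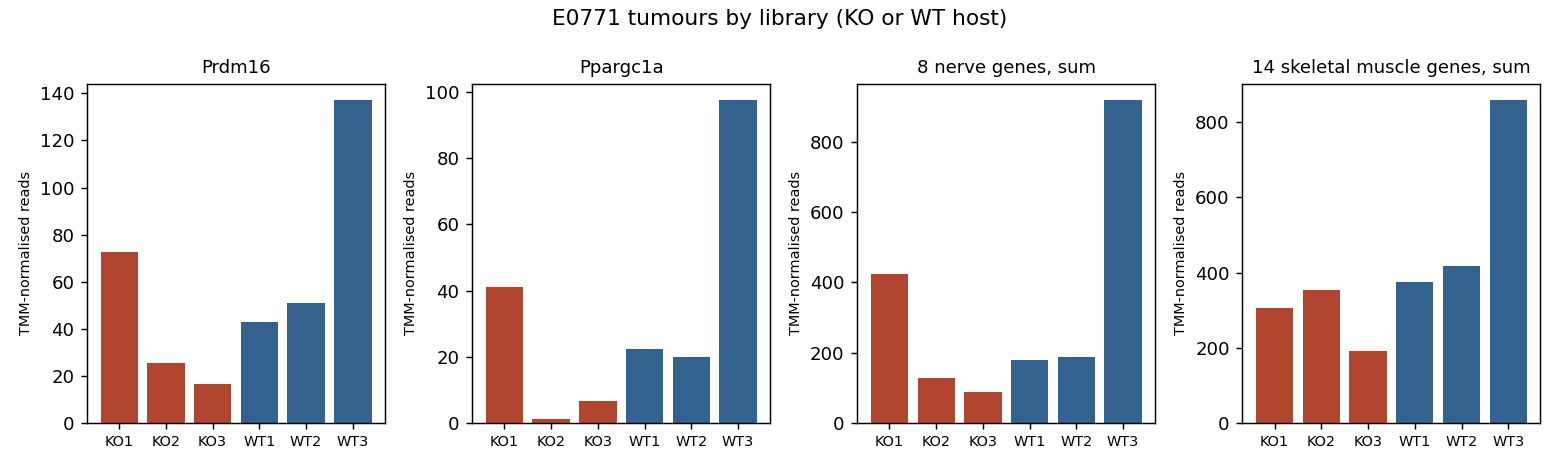
TMM-normalised reads (y axes from 0) of Prdm16, Ppargc1a, the sum of 8 nerve genes and the sum of 14 skeletal muscle genes in each E0771 tumour, KO hosts before WT hosts. All 4 are highest in WT replicate 3, and Prdm16, Ppargc1a and the nerve sum are second highest in KO replicate 1.

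Dio2 had 14.2, 0 and 5.56 normalised reads in KO, against 16.6, 32.2 and 12.9 in WT, a log2 difference of -1.52 (SE 0.80, adjusted p = 0.757), which was -2.78 without KO replicate 1 (adjusted p = 0.37). Elovl3 had 18.4, 31.6 and 12.2 in KO, against 33.2, 20.8 and 17.5 in WT, a log2 difference of -0.21 (SE 0.51, adjusted p = 0.949). Cox7a1 had 25.9, 31.6 and 27.8 in KO, against 27.3, 36.0 and 7.37 in WT, a log2 difference of 0.27 (SE 0.55, adjusted p = 0.939). The KO values of Cox7a1 lay inside the WT range, and the 2 WT tumours numbered 1 and 2 were close to all 3 KO tumours. With 3 tumours against 3, the exact permutation test cannot go below 0.1. At this depth and spread, edgeR detected no difference between hosts for any of the 5 genes tested.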

How the data were processed

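RNA was sequenced from 7 fat and 6 tumour samples, grouped by their titles. The submitters' processing notes name the tools CASAVA, TopHat and DESeq2 and the build mm10; the counting tool, annotation and strand setting are not given in the sources used here. For the tumours the authors deposited read counts per gene, and 5 summary lines that name no gene were left out (66.7% to 72.2% of all entries). For fat the authors deposited a normalised signal per gene, and 117220 of 117220 values above 0 were whole reads, within 0.001, after division by 1 step per library. The 9 genes and all lists were chosen with earlier results of these data known.

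Fat was tested with limma 3.58.1 with trend (R 4.3.3) on log2(value + 1) for the 14455 genes with 10 or more in at least 3 libraries, so fold changes are on that scale and understate those of low genes. Tumour counts were tested with edgeR 4.0.16 (TMM, filterByExpr, quasi-likelihood; 13109 genes). Tests were two-sided, KO minus WT, with Benjamini-Hochberg adjustment over all genes tested and a threshold of 0.05. The scripts were tested on simulated data. Besides the 9 genes, their relatives and Cd274 and Adipoq, the text names up to 4 genes of smallest p per list and the 5 genes most like Ucp1 and Prdm16; Zic1, Lhx8, Adrb1, Fgf21, Th, Ckm, Elovl1, Elovl7, Sox10 and Dbh were named after their values were seen, as was Lpl, and 1 result is not reported here. Alternatives were pseudocounts, filters, scalings, DESeq2 1.42.0 for tumours, edgeR on recovered fat reads, a replicate block and leaving out each library. Coordinates are from GENCODE M21 (GRCm38), and promoters from RefSeq (GRCm38.p6), which matched 6 of the 9 genes.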

Additional observations from a re-analysis of the deposited data

How the results depend on the processing

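In fat, the count of thermogenic genes lower in KO was 0 without a minimum value and 0 in limma without trend, against 1, and the cause was not tested. Leaving out each library in turn, it ran from 0 to 2, and the count of those higher from 0 to 2; over all genes the calls ran from 1575 to 2691 higher and from 1490 to 2567 lower, lowest without WT column 3, against 2430 and 2517. The log2 difference of Dio2 in fat then ran from -0.063, without WT column 4, to 0.55, that of Ppargc1a from -1.25 to -0.39, that of Cidea from 0.19 to 0.58 and that of Cox7a1 from -0.78 to -0.27. edgeR on recovered fat reads called 2356 genes higher and 2542 lower, with 2 and 1 of the thermogenic genes. No scaling moved the median of all fat genes by 0.1 or more.

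In the tumours, DESeq2 called 41 genes higher and 10 lower, and edgeR with no filter on low counts 21 and 1, against 0 and 0. Without 1 tumour the counts ran from 0 to 10 higher and from 0 to 11 lower, with 9 higher without KO replicate 3 and 10 higher and 11 lower without WT replicate 3. The log2 difference of Elovl3 then ran from -0.62 to 0.10, with 0.05 without KO replicate 3 and 0.10 without WT replicate 1, and that of Cox7a1 from -0.16, without WT replicate 3, to 0.71, while Ppargc1a ran from -3.49 to -0.30, Prdm16 from -1.89 to -0.27 and Dio2 from -2.78 to -1.01. None of these alternatives called a thermogenic gene in the tumours. Tumours of the same number did not deviate together (r = -0.22, 0.01 and -0.22), so the numbers were not taken as pairs. With the replicate number as a block, 0 genes were called and Prdm16 had a log2 fold change of -1.03. No paired analysis was possible in fat because the WT columns carry other numbers than the labels. Reads limit Ucp1 most, with 2 to 28 per fat library, and the limit of 3 reads for a count of 0 covers counting error only.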
